A study of Homo sapiens with 20 samples.

Results

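The nuclear receptors that sense drugs, bile acids, oxysterols and glucocorticoids were followed in HepaRG cells, a line from a human liver tumor. Its progenitors can mature in the dish into cells with hepatocyte features and cells with bile duct features. They are 10 genes taken by name, NR1I2 (PXR), NR1I3 (CAR), NR1H4 (FXR), NR0B2 (SHP), NR5A2 (LRH-1), NR1H3 and NR1H2 (LXR alpha and beta), RXRA, RXRB and NR3C1 (the glucocorticoid receptor), through all 13 probes whose RefSeq accession maps to one of them. All 10 passed the filter on dim probes and stand among the 22214 genes tested. RNA was measured on 20 one-color Agilent 8x60K arrays, 4 for each of 5 conditions. D4 is the progenitor stage on day 4 after seeding, D15 the committed stage, D30 − DMSO the same culture kept to day 30 without dimethyl sulfoxide (DMSO), and D30 + DMSO the culture given 2% DMSO from day 15 to day 30. D34 ± DMSO are cells of the last kind kept for 4 more days without DMSO. All conditions shared a William's E medium with serum, insulin at 5 μg/mL and the glucocorticoid hydrocortisone at 50 μM, so that no condition was free of a ligand of the glucocorticoid receptor. All arrays are of 1 cell line, and the study's methods describe the 4 samples of a condition as independent biological replicates.

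Nuclear receptors are transcription factors switched by small lipophilic ligands. PXR and CAR answer to drugs and bile acids and drive cytochromes P450, conjugating enzymes and transporters. FXR is the bile acid receptor and induces SHP, a receptor without a DNA-binding domain that represses other receptors, among them LRH-1, which activates bile acid synthesis. The LXRs answer to oxysterols and drive cholesterol efflux and lipid synthesis. All of these except SHP and LRH-1 bind DNA as heterodimers with an RXR, whereas the glucocorticoid receptor binds as a homodimer and waits in the cytoplasm with chaperones until hormone arrives.

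Levels are log2 values of the processed signal, with 0 at the 75th percentile of the array, and a level says nothing about another probe's level, so that each gene is compared only with itself. Differences were tested with limma over all 22214 genes, with n = 4 arrays in each condition. A call needed an adjusted p (Benjamini-Hochberg) under 0.005 together with a difference of over 2-fold, and "rose" or "fell" is used of calls alone. A signal counted as well above background where the scanner software marked it so. The signal at the 75th percentile was 407 to 766 intensity units, and r across genes was 0.955 to 0.992 for arrays of the same condition. The arrays lie on 4 slides. Slide 4, which was scanned in a session of its own, holds the fourth array of each condition and also the third array of D15 and D30 + DMSO, and replicate 4 stood apart for several receptors. The number of arrays limits the precision.

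Over the whole time course, 6 of the 10 receptors changed by limma's F-test (p under 0.001 after Bonferroni adjustment, with the condition means spanning over 3-fold), against 5.37% of all genes tested. They were SHP, CAR, PXR, FXR, LRH-1 and LXR alpha. SHP spanned 98.5-fold, CAR 86.9-fold, PXR 31.4-fold, LRH-1 6.63-fold and LXR alpha 3.18-fold, and FXR spanned 3.42 on the log2 scale. The spans of SHP, CAR and PXR start from D4, where SHP and CAR were well above background on 2 of 4 arrays and PXR on 3, so that their sizes depend on the background correction. The other four spanned less, with 2.32-fold for RXRA, 1.37-fold for RXRB, 1.3-fold for LXR beta and 1.2-fold for the glucocorticoid receptor. For RXRA the Bonferroni-adjusted p was 0.0654. PXR, CAR and SHP were lowest at D4 and were also called between later conditions. FXR, LRH-1 and LXR alpha were lowest at D4, with no call between any pair of later conditions. RXRA was called between D4 and D30 + DMSO (log2 difference 1.21, limma adjusted p = 2.94e-06) and between D4 and D30 − DMSO (1.01, limma adjusted p = 4.75e-05), and RXRB, LXR beta and the glucocorticoid receptor between no pair of conditions.

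**Figure D1:**
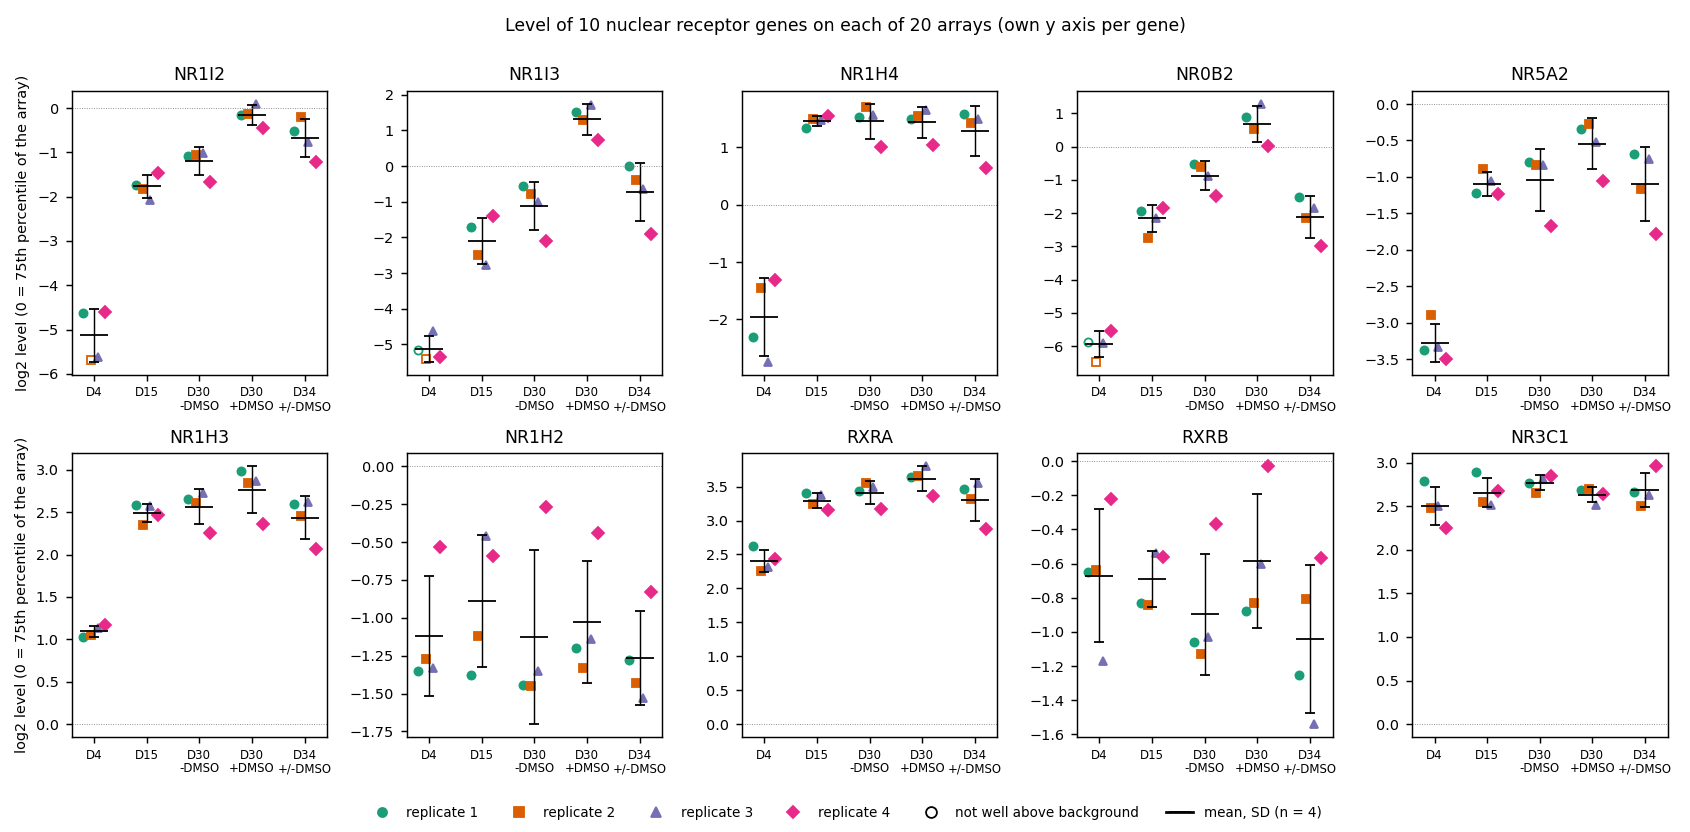
Log2 level of each of the 10 receptor genes on each of the 20 arrays, by condition, with 0 at the 75th percentile of the array and a separate y axis for each gene. Symbols mark the replicate, open symbols are arrays on which the probe was not well above background, and the black bar and whiskers are the mean and SD of 4 arrays. The D4 arrays of PXR (NR1I2), CAR (NR1I3), FXR (NR1H4), SHP (NR0B2), LRH-1 (NR5A2) and LXR alpha (NR1H3) all lie below the arrays of every later condition.

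The first comparison asked how the receptors differed between progenitors and committed cells, before any DMSO was given. From D4 to D15, 6 of the 10 receptors rose and 0 fell, where 5.79% of all genes tested rose and 9.5% were called in either direction. The 4 arrays of D15 lay above those of D4 for 7 receptors, the other being RXRA, a separation that 12.8% of all genes showed. The median difference of the 10 receptors was 1.79 on the log2 scale, beside 0.04 over all genes. In bulk RNA of this kind, fewer cells of a type and less RNA per cell cannot be told apart.

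PXR (NR1I2, NM_003889, chromosome 3), the receptor for rifampicin and many other drugs, had log2 levels of -4.63, -5.69, -5.61 and -4.61 at D4 and of -1.73, -1.82, -2.07 and -1.46 at D15. It rose 10.3-fold (log2 difference 3.37, SE 0.26, limma adjusted p = 2.15e-08), and was well above background on 3 of the 4 D4 arrays. CAR (NR1I3, NM_001077482, chromosome 1), the receptor of phenobarbital-type induction, stood at -5.15, -5.4, -4.62 and -5.36 at D4 and at -1.7, -2.48, -2.78 and -1.41 at D15. It rose 8.2-fold (log2 difference 3.04, SE 0.4, limma adjusted p = 1.41e-05), with 2 of the 4 D4 arrays well above background. Both xenobiotic receptors were thus dim in progenitors, and the D15 arrays of CAR were spread more widely, with an SD of 0.64 against 0.25 for PXR.

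FXR (NR1H4, NM_005123, chromosome 12) was well above background on all arrays. Its levels were -2.31, -1.45, -2.74 and -1.32 at D4 and 1.34, 1.5, 1.47 and 1.54 at D15, a rise of 3.42 on the log2 scale (SE 0.28, limma adjusted p = 3.19e-08). Its D4 arrays were the most spread (SD 0.68) and its D15 arrays the closest together (SD 0.09). SHP (NR0B2, NM_021969, chromosome 1), the FXR-induced repressor, was at -5.86, -6.47, -5.9 and -5.53 at D4, with 2 of 4 arrays well above background, and at -1.92, -2.74, -2.14 and -1.84 at D15. It rose 13.7-fold (log2 difference 3.78, SE 0.33, limma adjusted p = 7.69e-08).

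LRH-1 (NR5A2, NM_205860, chromosome 1), which activates genes of bile acid synthesis, was at -3.38, -2.9, -3.33 and -3.5 at D4 and at -1.22, -0.89, -1.05 and -1.24 at D15. It rose 4.53-fold (log2 difference 2.18, SE 0.25, limma adjusted p = 2.26e-06). LXR alpha (NR1H3, NM_005693, chromosome 11), the liver-enriched oxysterol receptor, was at 1.03, 1.05, 1.13 and 1.17 at D4 and at 2.58, 2.35, 2.57 and 2.47 at D15, a rise of 2.63-fold (log2 difference 1.4, SE 0.15, limma adjusted p = 1.45e-06). RXRA (NM_002957, chromosome 9), the main RXR of liver, was at 2.62, 2.26, 2.31 and 2.43 at D4 and at 3.41, 3.24, 3.37 and 3.16 at D15. Its groups did not overlap and its adjusted p was 2e-04, but the difference of 0.89 (95% interval 0.57 to 1.21) is under 2-fold and was not a call.

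The remaining 3 receptors overlapped between D4 and D15. The log2 difference was 0.24 for LXR beta (NR1H2, NM_007121, 95% interval -0.37 to 0.85), -0.02 for RXRB (NM_021976, -0.55 to 0.51) and 0.15 for the glucocorticoid receptor (NR3C1, NM_001018077, -0.12 to 0.42). These intervals allow a change of no more than 2-fold for each of the 3. Within slides 2, 3 and 4, which hold arrays of both conditions, all 6 receptors that rose were higher at D15, PXR by 2.9, 3.79 and 2.85 and CAR by 3.45, 2.13 and 3.26 on the log2 scale. With the normexp background correction and quantile normalization the same 6 were called, but the log2 difference was 1.47 for PXR (NR1I2), 1.24 for CAR (NR1I3), 1.44 for SHP (NR0B2), 1.37 for LRH-1 (NR5A2), 2.94 for FXR (NR1H4) and 1.35 for LXR alpha (NR1H3).

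**Figure D2:**
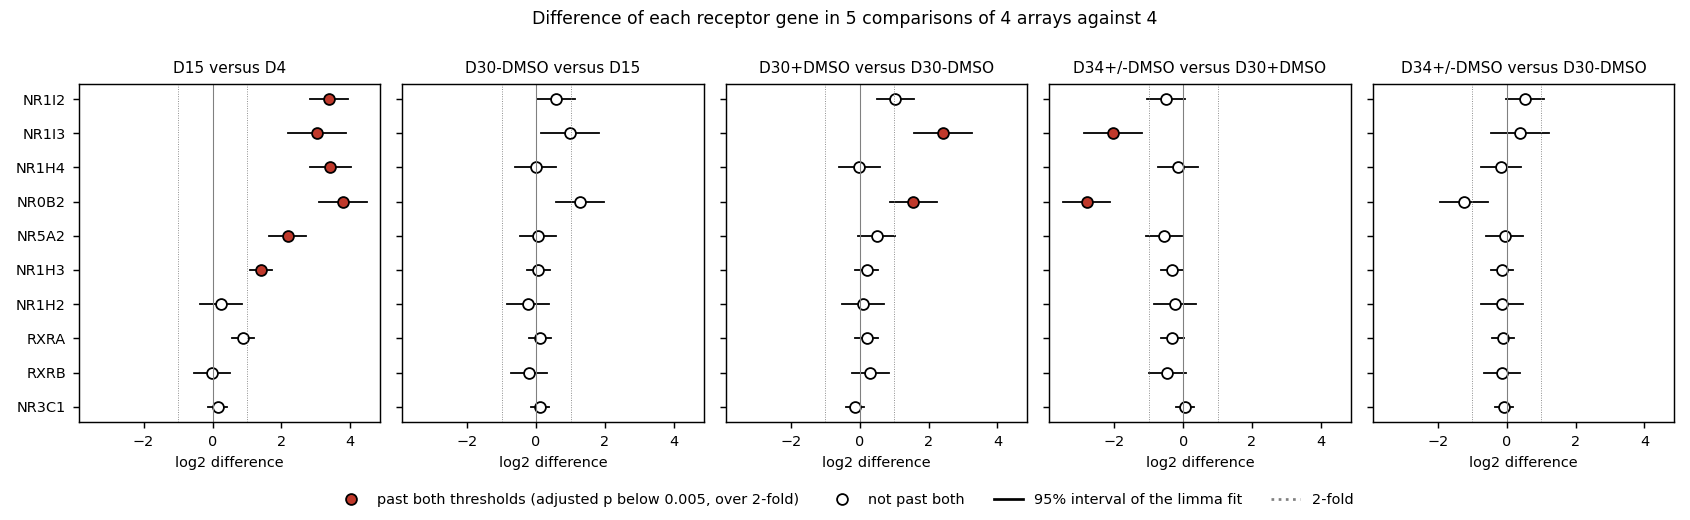
Log2 difference of each receptor gene in the 5 comparisons named above the panels, first condition minus second, with its 95% interval from the limma fit (4 arrays against 4). Red points passed an adjusted p of 0.005 and 2-fold (dotted lines). The 6 calls at D15 versus D4 lie between 1.4 and 3.78, the 2 calls on DMSO addition are CAR (NR1I3, 2.43) and SHP (NR0B2, 1.56), and the same 2 genes are the calls on DMSO removal, at -2.04 and -2.8.

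The stretch upstream of a transcription start is shown for 3 receptors with 1 start in the table used (RefSeq, GRCh38.p14). Of these, CAR and FXR rose at D15 and LXR beta was not called. Each line is the 250 bases before the start on the strand of the gene, and capitals mark the CG dinucleotides, the sites of DNA methylation that cluster in the promoters of broadly expressed genes. The CAR window is chr1:161238204-161238453 on the minus strand, next to the annotated gene. The FXR window is chr12:100503110-100503359 on the plus strand and lies inside the annotated span of the gene, which runs from 100473866 to 100564414. Longer FXR transcripts thus begin upstream of this window, at a start that the table used does not list. The LXR beta window is chr19:50376207-50376456 on the plus strand, next to the annotated gene.
CAR: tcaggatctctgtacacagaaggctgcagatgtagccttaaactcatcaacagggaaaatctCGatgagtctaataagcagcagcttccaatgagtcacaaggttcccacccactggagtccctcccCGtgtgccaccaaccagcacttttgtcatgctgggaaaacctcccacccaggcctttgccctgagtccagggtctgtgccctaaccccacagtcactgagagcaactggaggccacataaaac
FXR: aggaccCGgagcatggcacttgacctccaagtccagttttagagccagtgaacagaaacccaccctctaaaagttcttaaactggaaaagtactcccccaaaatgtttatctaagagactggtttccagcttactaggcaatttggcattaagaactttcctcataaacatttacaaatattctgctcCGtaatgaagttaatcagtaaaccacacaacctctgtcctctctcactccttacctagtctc
LXR beta: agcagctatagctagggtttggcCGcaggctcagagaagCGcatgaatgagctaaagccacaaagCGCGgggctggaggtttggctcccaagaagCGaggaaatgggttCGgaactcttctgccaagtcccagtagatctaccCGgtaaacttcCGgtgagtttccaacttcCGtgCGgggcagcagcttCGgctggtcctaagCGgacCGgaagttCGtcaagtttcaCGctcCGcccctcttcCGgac
The CAR and FXR windows hold 2 CG dinucleotides each and the LXR beta window 17. Over all 35116 windows of this length in the table, the median was 11, and 22.9% held at most 2. The other 6 receptors with entries have 2 or more starts each, with between 0 and 59 CG dinucleotides in a window. Starts of the same gene differed, with 7 and 59 for RXRA, 0 and 13 for LRH-1 and 0 to 42 over the 7 starts of the glucocorticoid receptor. LXR alpha, which rose at D15, had 2 to 22 over its 4 starts. A link between these counts and the course of a receptor was not tested. The nuclear receptor half-site AGGTCA, searched on both strands, is in 3 of the 22 windows of these genes, those of FXR, of 1 LRH-1 start and of 1 LXR alpha start, and in 12.1% of all windows. A match is a run of letters and no evidence of binding, and which of several starts the cells used is not measured by these probes.

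A pair of probes covers 3 of the receptors. Both CAR probes were higher at D15 than at D4 and with DMSO than without it. The second, annotated to another CAR transcript (NM_001077474), was below that mark on all 4 D4 arrays and was at least 4.05-fold higher at D15 (adjusted p over all probes 0.000178), and it rose by 2.22 on the log2 scale with DMSO (adjusted p = 0.00305). After DMSO removal it was lower by a log2 difference of -2.02, at an adjusted p of 0.00528 that is just above the threshold. The pair for LRH-1 disagreed. The dimmer probe lists the same accession, was well above background on all arrays, and differed from D4 to D15 by 0.57 (SE 0.33, adjusted p = 0.252), against 2.18 on the brighter probe. Neither probe of the glucocorticoid receptor was called in any pair of conditions.

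**Figure D3:**
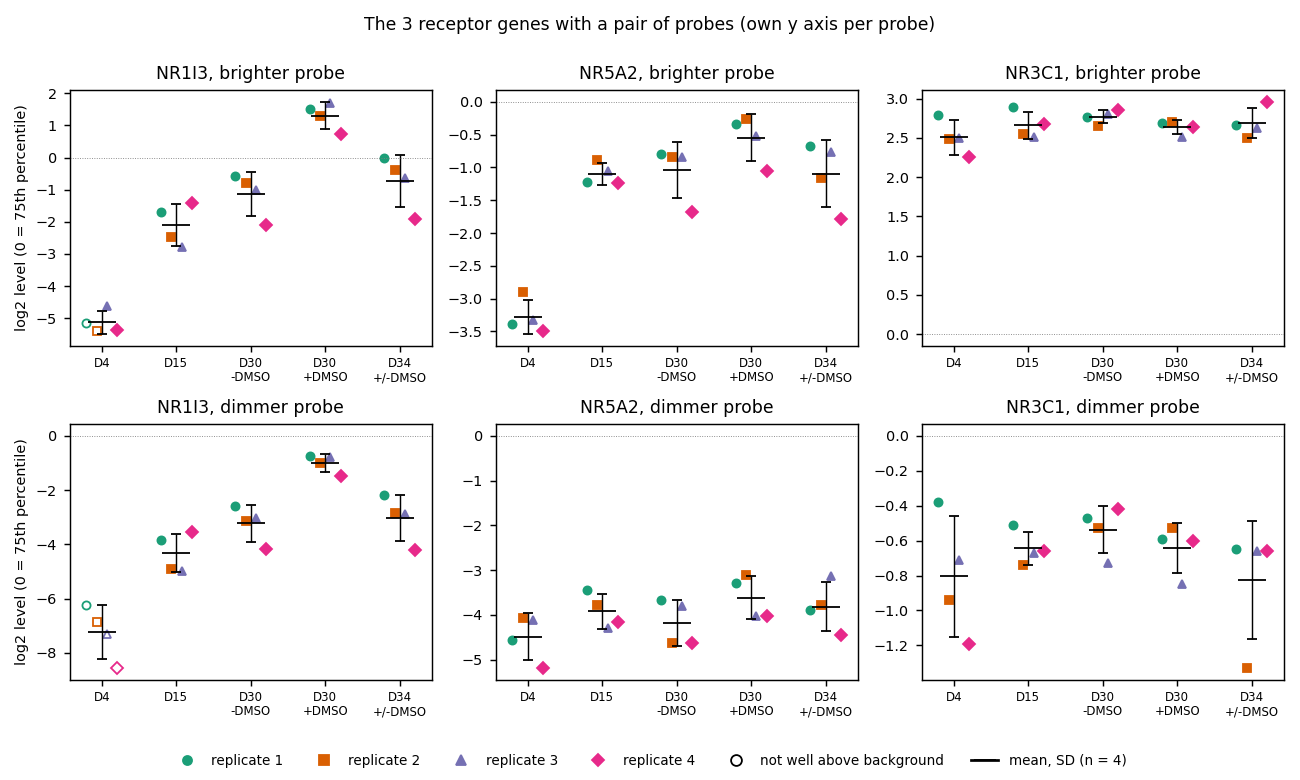
Log2 level on each array for both probes of CAR (NR1I3), LRH-1 (NR5A2) and the glucocorticoid receptor (NR3C1), the brighter probe above and the dimmer below, each panel with its own y axis. Symbols mark replicates, open symbols arrays on which the probe was not well above background, and bars the mean and SD of 4 arrays. The dimmer CAR probe follows the brighter one, whereas the dimmer LRH-1 probe spans -5.19 to -3.12 with overlapping conditions.

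The next comparison followed the culture from D15 to day 30 without DMSO. limma called 0 of the 10 receptors, and 0.009% of all genes tested, 2 genes. At an unadjusted p under 0.05 there were 3 receptors, and the methods' t-test called 0. The widest difference was that of SHP, which stood at -0.53, -0.6, -0.89 and -1.49 at D30 − DMSO. These arrays lay above all those of D15, by a log2 difference of 1.28 (SE 0.33), a separation upwards that 1.24% of all genes showed, but the adjusted p was 0.497. CAR differed by 0.98 (adjusted p = 1) and PXR by 0.57 (adjusted p = 1), with overlapping arrays for both. FXR had the same mean to within 0.01, with a 95% interval of -0.6 to 0.58.

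The DMSO comparison set D30 + DMSO against D30 − DMSO, cells of the same age with and without the solvent. Of the 10 receptors 2 rose, CAR and SHP, and 0 fell, where 1.73% of all genes rose and 5.92% were called in either direction. The arrays with DMSO lay above those without for 3 receptors, CAR, SHP and PXR, a separation that 12.5% of all genes showed. The median difference of the 10 receptors was 0.26 on the log2 scale, beside 0.04 over all genes.

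CAR was at -0.57, -0.79, -1.01 and -2.11 without DMSO and at 1.52, 1.29, 1.71 and 0.72 with it. It rose 5.38-fold (log2 difference 2.43, SE 0.4, limma adjusted p = 0.000265). Replicate 4 was the lowest array on both sides. By the methods' t-test the adjusted p was 0.0113, which is not a call. Within slide 3 the difference was 1.98 and within slide 4 it was 3.32, the only slides with both conditions.

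SHP was at 0.89, 0.54, 1.28 and 0.02 with DMSO, against -0.53, -0.6, -0.89 and -1.49 without. It rose 2.94-fold (log2 difference 1.56, SE 0.33, limma adjusted p = 0.00213), by 1.24 within slide 3 and 2.14 within slide 4. This call is close to its threshold. It was lost without D30 − DMSO replicate 3 (adjusted p = 0.00665) or 4 (0.00999), without D30 + DMSO replicate 1 (0.00791), 2 (0.00503) or 3 (0.0112), without the arrays of slide 4 (0.00719) and by the methods' t-test (0.0299), with log2 differences between 1.35 and 1.61.

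PXR was at -1.08, -1.05, -1.01 and -1.67 without DMSO and at -0.15, -0.13, 0.09 and -0.46 with it. The groups did not overlap and the log2 difference was 1.04 (SE 0.26, 95% interval 0.49 to 1.59), at an adjusted p of 0.00836 that is not a call. Against D15, PXR was 3.05-fold higher at D30 + DMSO (limma adjusted p = 0.000199), which is a call. The other 7 receptors overlapped between the conditions. FXR differed by -0.01 (95% interval -0.6 to 0.58), RXRA by 0.2 (-0.12 to 0.52), LXR alpha by 0.2 (-0.12 to 0.52) and the glucocorticoid receptor by -0.13 (-0.4 to 0.14). LRH-1, at -0.8, -0.84, -0.84 and -1.68 without DMSO and -0.34, -0.27, -0.52 and -1.05 with it, differed by 0.49 (adjusted p = 0.206).

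Removal of DMSO was read from D34 ± DMSO against D30 + DMSO. The cells of D34 ± DMSO were also 4 days older, and no culture kept in DMSO for as long was measured. The design therefore does not separate removal from longer culture. The words "on removal" and "after removal" name this comparison alone. This comparison shares the D30 + DMSO arrays with the one before, so that an array that is high there enters both. CAR and SHP fell, 2 of the 10 receptors, and 0 rose, where 2.11% of all genes fell and 7.06% were called in either direction. Their arrays did not overlap, a separation downwards that 12.6% of all genes showed. The median of the 10 receptors was -0.39 on the log2 scale, beside -0.07 over all genes.

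SHP was at -1.51, -2.14, -1.84 and -2.99 at D34 ± DMSO, 6.96-fold lower than with DMSO (log2 difference -2.8, SE 0.33, limma adjusted p = 5.04e-06). Within slides 3 and 4 the difference was -2.39 and -3.64. CAR was at 0, -0.39, -0.63 and -1.9, 4.11-fold lower (log2 difference -2.04, SE 0.4, limma adjusted p = 0.00106), by -1.71 within slide 3 and -3.12 within slide 4. Without D30 + DMSO replicate 3 the CAR difference was -1.91 at an adjusted p of 0.00533, just above the threshold. By the methods' t-test the adjusted p on removal was 0.00957 for SHP and 0.034 for CAR, neither a call. PXR, at -0.52, -0.2, -0.77 and -1.21, overlapped with D30 + DMSO and differed by -0.51 (adjusted p = 0.194).

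For these 3 receptors the differences on addition and on removal were 2.43 and -2.04 for CAR, 1.56 and -2.8 for SHP and 1.04 and -0.51 for PXR. The other 7 differed on removal by between -0.55 (LRH-1, adjusted p = 0.135) and 0.05 (the glucocorticoid receptor, adjusted p = 0.852), with overlapping arrays for each. The LRH-1 values depend on the model. With the slide as a block in the limma fit, LRH-1 differed by 0.56 on addition (adjusted p = 0.034) and by -0.69 on removal (0.00845), neither a call. Its dimmer probe, without that block, differed by 0.57 (limma adjusted p over all probes 0.281) and -0.2 (0.767).

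Against cells that never had DMSO (D30 − DMSO), D34 ± DMSO showed 0 calls among the 10 receptors, beside 1.52% of all genes. These conditions also differ in the age of the culture, and the part of age was not tested. There was 1 receptor at an unadjusted p under 0.05, SHP, and the methods' t-test called 0. The 4 arrays of SHP at D34 ± DMSO, between -2.99 and -1.51, lay below the lowest D30 − DMSO array, at -1.49, by a narrow margin. The means differed by -1.24 (SE 0.33, adjusted p = 0.0328), a separation downwards that 6.69% of all genes showed. The difference was -1.25, -1.14 and -1.5 within slides 1, 3 and 4. CAR differed by 0.39 (95% interval -0.45 to 1.23) and PXR by 0.53 (-0.02 to 1.08). In the order of its condition means SHP ran D4, D15, D34 ± DMSO, D30 − DMSO and D30 + DMSO, and D15 and D34 ± DMSO, neighbours in that order, differed by 0.04 (adjusted p = 0.986). CAR and PXR ran D4, D15, D30 − DMSO, D34 ± DMSO and D30 + DMSO. For CAR the first and the last step of that order were calls, and for PXR the first alone.

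Related receptors were set against each other in each array, and the change of one minus the change of the other was tested with a two-sided exact permutation test, for 3 pairs in 5 comparisons. Of these 15 exact tests, 4 reached p = 0.0286, the smallest that 4 arrays against 4 allow, and none passed after Benjamini-Hochberg adjustment (0.107). With this smallest p, a test could pass after adjustment only if many of the 15 reached it. The lack of a pass therefore says little about the pairs. With DMSO the log2 difference was 1.04 for PXR and 2.43 for CAR, which are -1.39 apart. On removal it was -0.51 and -2.04, which are 1.52 apart. From D4 to D15 the same pair differed by 0.33 (exact p = 0.457). The difference of LXR alpha from D4 to D15 exceeded that of LXR beta by 1.16, and the difference of RXRA exceeded that of RXRB by 0.91. After D15 neither of these pairs differed at an unadjusted p under 0.05.

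**Figure D4:**
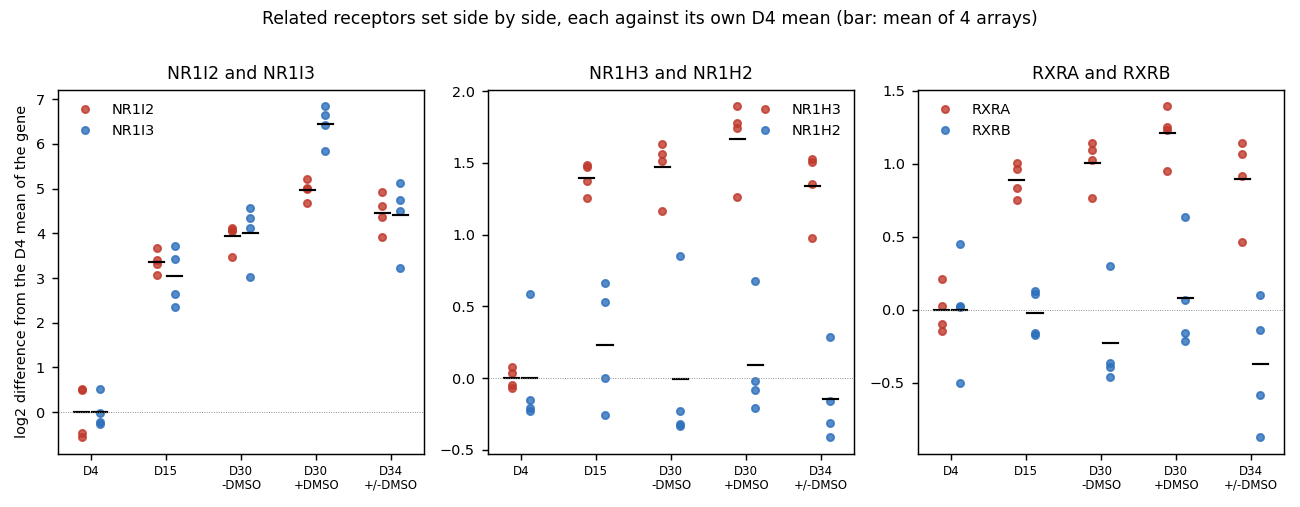
Log2 difference of each array from the D4 mean of the same gene, for PXR (NR1I2) and CAR (NR1I3), LXR alpha (NR1H3) and LXR beta (NR1H2), and RXRA and RXRB, by condition. Points are single arrays and black bars the mean of 4. CAR lies above PXR at D30 + DMSO, where the means were 6.44 and 4.97 above D4, and LXR alpha and RXRA lie above their relatives from D15 on.

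The genes that the receptors are known to regulate were counted in lists. Over all genes tested, 5.79% rose from D4 to D15, 1.73% rose with DMSO and 2.11% fell on removal. The medians over all genes were 0.04, 0.04 and -0.07 on the log2 scale. All 10 hepatocyte markers also rose from D4 to D15 (median 3.57), and the part of the receptors in the counts below was not tested. Of 14 tested PXR and CAR targets, 9 rose from D4 to D15, with a median of 2.47 on the log2 scale, and 6 rose with DMSO (median 1.5). CYP3A4 and CYP2B6, the classical enzymes of PXR and CAR induction, rose most with DMSO among these, by 16.8-fold (log2 4.07, SE 0.26, limma adjusted p = 1.02e-08) and 20-fold (log2 4.32, SE 0.27, limma adjusted p = 1.02e-08). After removal 4 fell, CYP3A4 by 91.7-fold (limma adjusted p = 1.74e-11), CYP2B6 by 33.5-fold, CYP3A7 by 9.92-fold and GSTA2, a glutathione transferase, by 2.52-fold. Against D30 − DMSO, CYP3A4 was then 5.45-fold lower and the efflux transporter ABCC2 2.34-fold higher, both calls. CYP2C19, not well above background at D4, was at least 31.8-fold higher at D15. Members of the CYP3A and CYP2C families have near-identical sequences, and shared hybridisation between their probes was not tested.

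Of 8 tested FXR targets, 7 rose from D4 to D15 (median 3.13), led by KNG1, kininogen, at 160-fold and SLC27A5, which couples bile acids to coenzyme A, at 86.7-fold. The 7 include SLC51A, the signal of which was well above background on 0 of 4 D4 arrays and 1 of 4 D15 arrays. Its bound was at least 1.92-fold, under the 2-fold limit. With DMSO 1 rose, SLC27A5 by 3.64-fold (limma adjusted p = 0.000156), and the list's median was 0.05, with 5 genes at an unadjusted p under 0.05 in both directions. Among them, BAAT, which conjugates bile acids, differed by 1.28 (adjusted p = 0.00729) and SLC51B, a subunit of a bile acid exporter, by -1.56 (adjusted p = 0.00945). After removal SLC27A5 fell 3.97-fold and BAAT 2.81-fold. ABCB11 and SLC51A ran the other way, neither a call. ABCB11 differed by -1.77 with DMSO (limma adjusted p = 0.126) and by 1.61 after removal (0.157), with overlapping arrays. SLC51A was at least 1.9-fold lower with DMSO (limma adjusted p = 0.0954) and at least 3.21-fold higher after removal (0.00682). It was well above background on 0 of 4 D30 + DMSO arrays and 2 of 4 D30 − DMSO arrays. SLC51B was 4.14-fold lower at D34 ± DMSO than at D30 − DMSO, with 3 of the 4 D34 ± DMSO arrays well above background. The 3 genes listed as repressed by SHP or activated by LRH-1 all rose from D4 to D15. CYP7A1, the rate-limiting enzyme of bile acid synthesis, rose 20.4-fold, CYP8B1, the sterol 12-alpha-hydroxylase, 116-fold and SLC10A1, the bile acid importer, 35.2-fold, with 2, 1 and 2 of the D4 arrays well above background. With DMSO none of the 3 was called. One was at an unadjusted p under 0.05, CYP8B1, with a log2 difference of 2.12 (adjusted p = 0.00653), and the median of the 3 was 0.87. After removal SLC10A1 fell 2.47-fold.

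**Figure D5:**
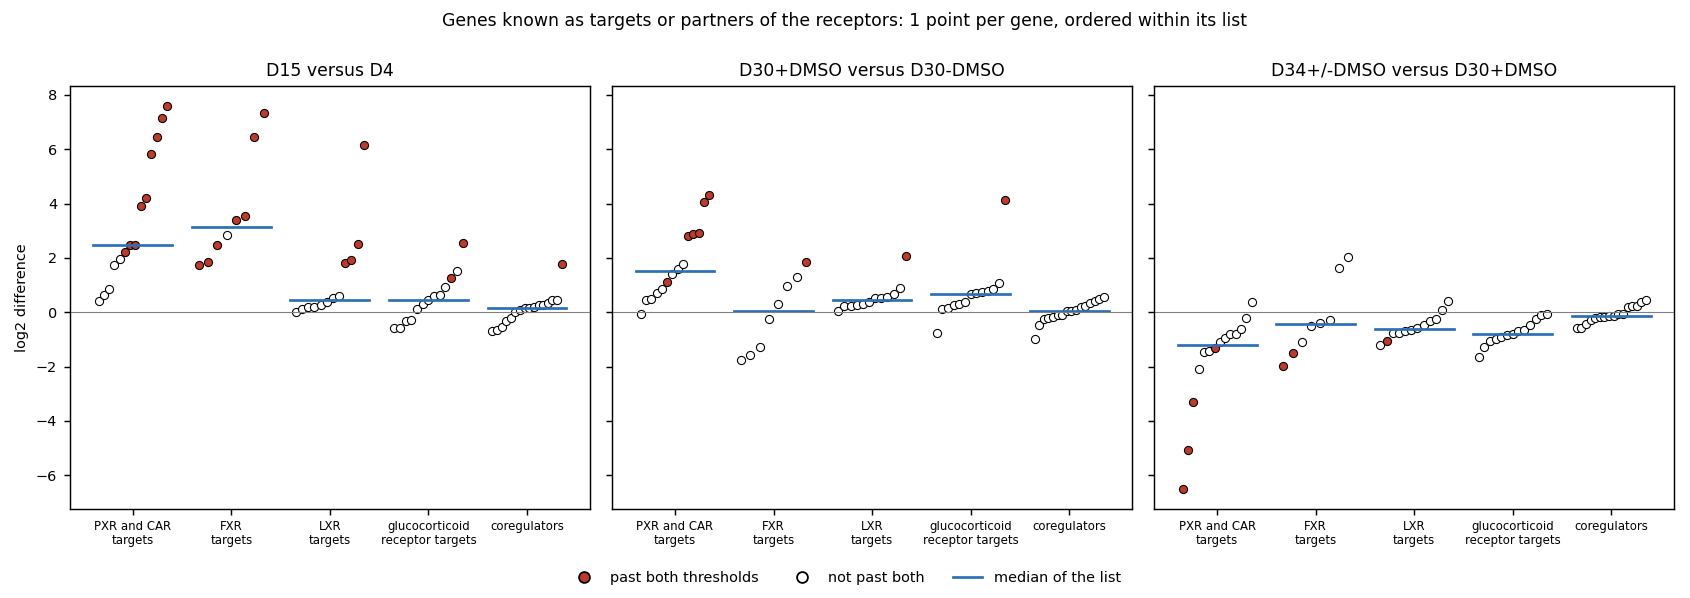
Log2 difference of each tested gene of 5 lists (14 PXR and CAR targets, 8 FXR targets, 12 LXR targets, 13 glucocorticoid receptor targets and 16 coregulators) in 3 comparisons, 1 point per gene in increasing order within its list, with the list's median in blue. Red points passed an adjusted p of 0.005 and 2-fold. The PXR and CAR targets have a median of 1.5 with DMSO and -1.21 after its removal, whereas the medians of the coregulators are 0.04 and -0.13.

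Of 12 LXR targets, 4 rose from D4 to D15. They were the cholesterol transporters ABCA1 (3.83-fold), ABCG5 (5.65-fold) and ABCG8 (72.1-fold, with 2 of 4 D4 arrays well above background) and the phosphodiesterase SMPDL3A (3.54-fold). With DMSO 1 rose, ABCG8 by 4.21-fold, and after removal 1 fell, SMPDL3A by 2.1-fold. At an unadjusted p under 0.05, in either direction, there were 6 of the 12 with DMSO and 9 after removal. The medians of the list were 0.45 and -0.62 on the log2 scale. Of 13 glucocorticoid receptor targets, 2 rose from D4 to D15, tyrosine aminotransferase TAT by 5.81-fold and ERRFI1 by 2.37-fold. With DMSO 1 rose, PCK1, the gluconeogenic carboxykinase, by 17.4-fold (limma adjusted p = 0.000305), with 1 of 4 D30 − DMSO arrays well above background. In that comparison 10 of the 13 were at an unadjusted p under 0.05, in either direction, and the median was 0.68. None of the 13 was called after removal, where 8 were at an unadjusted p under 0.05 and the median was -0.81.

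Of 16 coregulators of nuclear receptors tested, 1 rose from D4 to D15, the methyltransferase CARM1 by 3.4-fold, 0 were called with DMSO (4 at an unadjusted p under 0.05) and 0 on its removal (3). PPARGC1A, the coactivator PGC-1 alpha, differed by -0.98 with DMSO (limma adjusted p = 0.000318), just under 2-fold and so not a call, and was 2.25-fold lower at D34 ± DMSO than at D30 − DMSO (limma adjusted p = 0.000171). Of the 6 chaperones that hold unliganded receptors, limma called 0 in the 5 comparisons, with between 0 and 2 at an unadjusted p under 0.05 in each.

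Among the other human nuclear receptors, 27 of 38 were tested. From D4 to D15, 4 of the 27 rose and 1 fell, and 22 were not called, with a median of 0.26 on the log2 scale beside 1.79 for the 10 receptors. RORA rose 5.17-fold, HNF4A, a master regulator of hepatocyte genes, was at least 4.07-fold higher with no D4 array well above background, and VDR, the vitamin D receptor, fell 2.83-fold. With DMSO 1 rose and 1 fell, VDR by 2.54-fold. After removal VDR rose 2.18-fold and PPARD fell 2.1-fold. No list of receptors was tested against another.

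Cell type markers moved with some of these results. From D4 to D15, all 10 hepatocyte markers rose, and their mean log2 level over the list went from between 1.9 and 3.26 to between 6.29 and 6.7, while all 10 proliferation markers fell, from between -0.11 and 0.58 to between -3.24 and -1.86. With DMSO, 0 hepatocyte markers were called (3 at an unadjusted p under 0.05), but their mean level was between 6.94 and 7.33 against between 6.52 and 6.76 without it. At D34 ± DMSO it was between 6.64 and 6.93. On removal all 10 proliferation markers rose, to between -0.29 and 1.09 from between -3.7 and -2.21. Of 10 biliary and progenitor markers 7 were tested, with a mean level between 1.14 and 1.34 with DMSO and between 1.51 and 1.76 without it. SOX9 rose 2.48-fold with DMSO, and SPP1 and ANXA3 fell 3.43-fold and 3.92-fold. EPCAM, CFTR and the stromal marker PDGFRB were well above background on no array. Of 10 non-epithelial markers 6 were tested, with mean levels between -3.06 and -1.72 over all arrays, and 2 were calls from D4 to D15, both upwards, CD68 (2.66-fold) and CD163, which was well above background on no array of either condition. The part of these cell types in the receptor results was not tested.

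For each of the 6 receptors that passed the F-test, the nearest genes were sought among 1018 others that passed it and have a symbol, by the root-mean-square difference over the 20 arrays after each gene was centred on its mean. Nearest to PXR were GCKR (0.32 log2 units) and KLKB1 (0.34), where the median over all candidates was 1.61. Nearest to CAR were CLDN14 (0.38) and APOA5 (0.41), and nearest to SHP were RBP5 (0.55) and AQP9 (0.55), with medians of 1.99 and 1.94. FXR was nearest to AQP3 (0.27) and HPR (0.29), and LRH-1 to C11orf54 (0.18) and PON3 (0.21). LXR alpha was nearest to VPS37D (0.11) and ZDHHC14 (0.16). None of these neighbours was another of the 10 receptors.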

How the data were processed

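Cy3-labelled RNA of HepaRG cells was measured on 20 Agilent arrays, 4 per condition. For each array the authors deposited the Feature Extraction output (version 10.7.3.1 in the submitters' processing notes and 10.7.1.1 in the file headers). The processed signal there is an intensity from which background and spatial trends were removed. Median intensities and flags of 0 or 1 are in the same deposited files, and a matrix by the authors gives log2 values against a baseline.

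Spots flagged as outliers were left out and spots of a probe averaged. Each array was scaled to its 75th percentile, a floor of 1 was set, and log2 was taken. The filter on dim probes asked for 4 of 4 arrays well above background in some condition (26531 of 42405 probes passed), and a gene was read from its probe of highest mean. Symbols came from RefSeq accessions. One limma model (3.58.1, with R 4.3.3 and version 1.17.8 of data.table) covered the 20 arrays with 5 condition means. The thresholds follow the study's methods, with limma in place of their t-test and analysis of variance. For a probe above background on no array of a condition, the fold is a bound against the lowest signal above background. The steps were tested on simulated data.

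The 10 receptors and all gene lists were chosen with earlier results of these data known. Named genes are the receptors, from each list the genes called where a comparison calls 4 or fewer and otherwise the 2 largest in each direction, and the 2 nearest genes by centred difference. A few genes that the rule names are left out of the text. EPCAM, CFTR and PDGFRB were named for their lack of signal, and SLC51B, BAAT, CYP8B1 and PPARGC1A with DMSO for near calls, after these were seen. ABCB11 and SLC51A were also named after the data were seen, for their direction with DMSO and on its removal, and SLC51A for its weak signal. Same-numbered replicates were not taken as pairs, as their deviations from the condition means correlated above 0.1 in 27 of 40 pairs and not in all. The count was 43 of 120 for other numbers, and 44 of 44 for arrays on the same slide. The main model nevertheless held no term for the slide, which entered as an alternative alone. With it, the SE from D4 to D15 was 0.15 in place of 0.29 for LXR beta and 0.15 in place of 0.25 for RXRB. Alternatives were quantile normalization, normexp with an offset of 50, a floor of 10, the authors' matrix, other filters and probe rules, a block for slide, scan session or replicate number, a fit of only 2 conditions, the methods' tests, other thresholds, leaving out each array and, added after the data were seen, leaving out slide 4.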

Additional observations from a re-analysis of the deposited data

Results flagged for a closer look

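In each condition, the highest or lowest of the 4 arrays was compared with the range of the group by Dixon's criterion at its 95% level for each of the 13 receptor probes. Of 65 such groups 7 stood out, where chance flags about 1 in 20, and 6 of the 7 are replicate 4 of their condition, on slide 4. At D30 − DMSO, replicate 4 was the lowest for PXR (NR1I2), at -1.67 on the log2 scale, and for the brighter probe of LRH-1 (NR5A2), at -1.68, and the highest for LXR beta (NR1H2), at -0.27, and for RXRB, at -0.37. At D34 ± DMSO, replicate 4 was the lowest for FXR (NR1H4), at 0.64. At D4, replicate 4 was the highest for LXR beta, at -0.53. The remaining array is replicate 2 of D34 ± DMSO, on slide 1, the lowest for the dimmer probe of the glucocorticoid receptor (NR3C1), at -1.33. A difference between the slides was not tested for these probes.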

How the results depend on the processing

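From D4 to D15, limma called 6 receptors in every alternative except 2: 7 without a limit on the fold change, with RXRA (adjusted p = 2e-04), and 3 with probes well above background on all arrays, which leaves out PXR, CAR and SHP. That filter gave 0 calls on DMSO addition, 0 on removal and 3 by the F-test. No alternative read LRH-1 from its dimmer probe alone, so these counts do not decide between its probes. On DMSO addition, the count was 1 with no filter on dim probes, 1 with a fit of only the 2 conditions and 1 without the arrays of slide 4, CAR remaining in each, and 3 at an adjusted p below 0.05, with PXR. On removal a fit of only the 2 conditions gave 1, SHP. At these thresholds the methods' t-test gave 0 calls for addition, where the adjusted p was 0.0113 for CAR and 0.0299 for SHP, and 0 for removal, where it was 0.034 and 0.00957. Against D30 − DMSO, an adjusted p below 0.05 gave 1 call at D34 ± DMSO, SHP. Leaving out each array in turn gave between 1 and 2 calls for addition, 1 and 2 for removal, 6 from D4 to D15, between 4 and 6 by the F-test and between 3 and 5 pair differences at an unadjusted exact p under 0.05. With the slide as a block the counts of called receptors were 6, 0, 2, 2 and 0 in the 5 comparisons. No called difference changed its sign, and of the differences that were not calls, 42 of 1432 values over the alternatives had the other sign.

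The replicate block, in a fit with the replicate number as a term, moved no receptor across the threshold, with an adjusted p of 0.000134 for CAR (NR1I3) and 0.000865 for SHP (NR0B2) on addition. For 16 of the 20 arrays the best correlation of deviations was with an array of the same number. Replicate number and slide partly coincide, as every replicate 4 lies on slide 4, and deviations correlated above 0.1 in 44 of 44 pairs on the same slide. Whether number or slide lies behind this was not tested. Over all genes, counts of calls ranged from 1105 to 3049 around 2110 from D4 to D15, from 581 to 2117 around 1314 on addition, from 495 to 2620 around 1569 on removal, from 41 to 479 around 338 at D34 ± DMSO against D30 − DMSO, from 0 to 10 around 2 from D15 to D30 − DMSO and from 537 to 1804 around 1193 by the F-test. The lowest came from the methods' tests or, for the F-test, without slide 4. PXR, CAR and SHP were near background at D4, which limits the size of their rise there.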
